A study of Mus musculus with 3 samples.

Results

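The genes described here are 7 members of the machinery that presents peptides on MHC class II: Cd74, H2-Aa, H2-Ab1, H2-Eb1, H2-DMa, H2-DMb1 and Ciita, chosen by name from 27998 genes and measured in cells without counts of Ptprc, the gene of the leukocyte protein CD45. The cells came from lungs of MMTV-HER2/Neu mice on the FvB background, a model in which a mammary promoter drives the Neu oncogene. Of the 3 single-cell 3′ libraries, the late HER2-positive one came from CD45- HER2+ cells of mice older than 20 weeks that bore primary tumours. The early HER2-positive one came from CD45- HER2+ cells, and the early HER2-negative one from CD45- HER2- cells, of mice aged 14 to 18 weeks in which no tumour could be felt. Each group is 1 library, so stage, sort and library cannot be told apart. No p-value or SE is given, and every interval (95%) covers counting error only.

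A barcode was used when it had at least 1000 unique molecular identifiers (UMIs, each marking 1 captured RNA molecule), under 25% of them mitochondrial, and 0 of Ptprc. This kept 6008 barcodes in the late HER2-positive, 7611 in the early HER2-positive and 6410 in the early HER2-negative library, with 51038242, 44435569 and 22998794 UMIs. Each barcode went to the first of 6 classes whose genes it held. In the late HER2-positive library these were 161 mammary, 3995 alveolar type 2 (AT2), 196 airway, 485 endothelial, 931 mural and 71 fibroblast cells. The early HER2-positive library held 0 mammary, 3935 AT2, 155 airway, 1555 endothelial, 1352 mural and 268 fibroblast cells. The early HER2-negative library held 0 mammary, 46 AT2, 1 airway, 5185 endothelial, 221 mural and 684 fibroblast cells. No rule was met by 169, 346 and 273 barcodes of the late HER2-positive, early HER2-positive and early HER2-negative libraries, which stayed unclassified. Each class of at least 50 cells was highest for all markers of its own list in every library, a list that includes the genes of the rule itself. By this rule 161 of the 6008 late HER2-positive barcodes and 0 of the 7611 early HER2-positive barcodes were mammary, although the submitters label both sorts as cancer cells. Doublets were not removed, and 1161, 1499 and 227 barcodes of the late HER2-positive, early HER2-positive and early HER2-negative libraries met the rules of more than 1 class. The late and early HER2-positive libraries shared 10 barcodes, where random draws from the listed barcodes would give 6.73. The early HER2-negative library shared 14 with the late and 18 with the early HER2-positive library, where such draws would give 5.67 and 7.18. The cause was not tested.

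Class II molecules are pairs of an alpha and a beta chain that carry peptides from endosomes to the cell surface, where CD4 T cells read them. Cd74 encodes the invariant chain, which escorts the pair and fills its groove until the H2-DM molecule exchanges the remnant for a peptide. Ciita encodes the coactivator that switches these genes on. Professional antigen-presenting leukocytes express the set constitutively, and alveolar type 2 cells and some endothelial cells are also known for it.

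Ciita does not bind DNA itself but docks on factors held at the so-called X and Y boxes upstream of class II genes. The 150 bases before the RefSeq start are shown for 3 members because each holds such letters (GRCm38.p6, written along the gene's own strand, matches in capitals). The searched motifs were an X-box stretch with any base at the fourth position, which is the longer run of capitals in H2-Eb1 and H2-DMb1, TGATTGG, a Y-box core, and TGACGTCA, a cyclic-AMP-response motif. Both strands were searched, and the matches do not overlap. H2-Aa lies at chr17:34287824-34287973 on the minus strand, H2-Eb1 at chr17:34305717-34305866 on the plus strand and H2-DMb1 at chr17:34153041-34153190 on the plus strand.
H2-Aa: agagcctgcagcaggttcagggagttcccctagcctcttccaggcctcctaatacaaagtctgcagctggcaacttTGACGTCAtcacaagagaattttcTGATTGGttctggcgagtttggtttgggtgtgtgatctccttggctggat
H2-Eb1: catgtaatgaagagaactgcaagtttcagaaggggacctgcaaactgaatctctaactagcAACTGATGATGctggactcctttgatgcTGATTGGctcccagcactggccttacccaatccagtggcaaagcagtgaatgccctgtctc
H2-DMb1: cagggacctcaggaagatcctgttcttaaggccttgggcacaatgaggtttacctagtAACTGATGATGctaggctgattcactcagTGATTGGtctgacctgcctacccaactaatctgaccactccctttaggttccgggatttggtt
In H2-Aa the Y-box core lay at -50 to -44 and the cyclic-AMP-response motif at -74 to -67, counted from the start. The Y-box core lay at -61 to -55 in H2-Eb1 and at -63 to -57 in H2-DMb1, with the X-box stretch at -89 to -79 and at -92 to -82. The X-box stretch occurred in 11 of 32851 promoter windows of this length (0.0335%), the Y-box core in 5.71% and the cyclic-AMP-response motif in 1.36%. Neither of the 2 windows listed for H2-DMa held any of them. Cd74, H2-Ab1 and Ciita were not searched as members, so the lack of a sequence here does not mean the lack of a match. The capitals are matches of letters, chosen after the genes were known, and not measured sites.

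Cd74 was high in AT2 and endothelial cells and low in mural cells and fibroblasts. In AT2 cells it stood at 2489 counts per 1000000 UMIs (CPM) in the late and 2475 CPM in the early HER2-positive library. In endothelial cells it stood at 2392.5 CPM in the late HER2-positive, 2044 CPM in the early HER2-positive and 2708 CPM in the early HER2-negative library. Airway cells held 300.4 CPM in the late and 296 CPM in the early HER2-positive library. Mural cells held 58.2, 172 and 6.15 CPM, and fibroblasts 77.6, 60.1 and 8.90 CPM, in the late HER2-positive, early HER2-positive and early HER2-negative libraries. In fibroblasts 1 cell held 20 of the 30 late and 1 cell 35 of the 78 early HER2-positive counts, and the levels without them were 26.5 CPM in the late and 33.6 CPM in the early HER2-positive library. Within each HER2-positive library the AT2, endothelial and airway levels followed in that order without overlap of their intervals, whereas fibroblast, mammary and mural levels of the late library overlapped. Unclassified barcodes lay between endothelial and airway cells, at 758 CPM in the late and 462 CPM in the early HER2-positive library. In the early HER2-negative library they held 56.1 CPM. The 46 AT2 cells of the early HER2-negative library held 957 Cd74 counts.

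The paired chains followed the same classes but in different proportions. H2-Aa, the alpha chain of I-A, stood at 645 and 627 CPM in AT2 cells of the late and early HER2-positive libraries, and at 435, 388 and 522 CPM in endothelial cells of the late HER2-positive, early HER2-positive and early HER2-negative libraries. H2-Ab1, its beta chain, stood at 476 and 479 CPM in those AT2 cells, and at 769, 718 and 1055 CPM in those endothelial cells. H2-Aa was thus higher in AT2 cells, and H2-Ab1 was lower in AT2 cells on the CPM scale, a direction that turns when the classes are scaled by their median gene. H2-Eb1, the beta chain of I-E, lay between 7.61 and 10.7 CPM in AT2 and endothelial cells, with intervals that overlapped between neighbouring classes. The mice were FvB, and how class II differences between that strain and the reference build bear on these counts was not tested.

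H2-DMa and H2-DMb1, the chains of the peptide exchanger, were lower in AT2 than in endothelial cells on the CPM scale, a direction that for H2-DMb1 turns in the late library when the classes are scaled by their median gene. H2-DMa stood at 56.7 and 55.2 CPM in AT2 cells of the late and early HER2-positive libraries, and at 151, 125 and 170 CPM in endothelial cells of the late HER2-positive, early HER2-positive and early HER2-negative libraries. H2-DMb1 stood at 51.7 and 40.6 CPM in those AT2 cells and at 87.9, 75.5 and 113 CPM in those endothelial cells. Ciita was detected at 4.81 and 6.57 CPM in those AT2 cells and at 24.4, 23.3 and 36.4 CPM in those endothelial cells. H2-DMb1 has a near copy, H2-DMb2, whose longest annotated transcript is 94.8% identical where the pair align and 78.5% in the last 300 bases, so counts of either are uncertain.

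**Figure D1:**
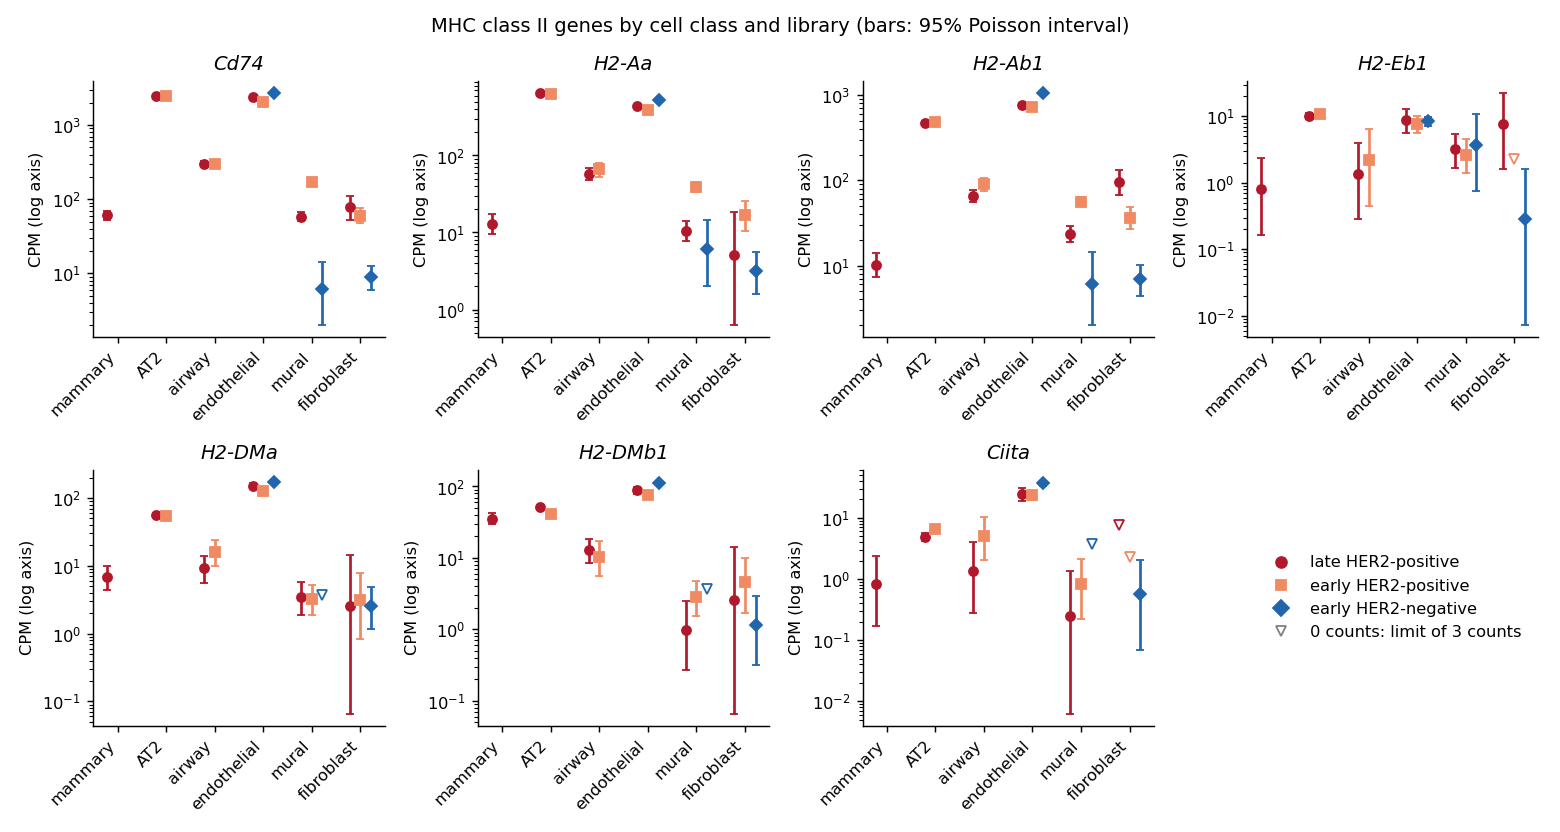
CPM (log axis) of each of the 7 genes in each cell class, by library, with 95% Poisson intervals; open triangles mark the limit that 0 counts allow, and groups under 50 cells are left out. Cd74 sits between 2044 and 2708 CPM in AT2 and endothelial cells and at 58.2 CPM in late HER2-positive mural cells.

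Late and early HER2-positive AT2 cells were close for all 7 genes. None was past 1.5-fold, against 3.66% of all genes with at least 10 counts higher and 15.1% lower. The ratio of late over early was 1.01 for Cd74 (interval 0.996 to 1.02), 1.03 for H2-Aa and 0.994 for H2-Ab1. The widest were 1.27 for H2-DMb1 (1.18 to 1.37) and 0.732 for Ciita (0.593 to 0.903), which rests on 176 late and 190 early counts. These intervals leave out the spread between mice.

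In endothelial cells the late HER2-positive library was likewise within 1.5-fold of the early HER2-positive one for all 7 genes (all genes 5.92% higher and 11.8% lower). The ratios ran from 1.05 for Ciita to 1.21 for H2-DMa, with Cd74 at 1.17 (1.14 to 1.20).

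All 7 ratios of early HER2-positive over early HER2-negative endothelial cells were below 1, and 1, Ciita, was past 1.5-fold lower (all genes 7.03% lower and 12.9% higher). Ciita had a ratio of 0.639 (0.533 to 0.763), which was 0.672 and no longer past 1.5-fold with barcodes of more than 1 class left out. The ratio was 0.669 for H2-DMb1, 0.681 for H2-Ab1 and 0.755 for Cd74. Beside them, Gpihbp1, a capillary gene, stood at 1248 CPM in the early HER2-positive and 1959.7 CPM in the early HER2-negative endothelial cells. Sftpc, an AT2 gene, stood at 4000.0 CPM in the early HER2-positive and 118 CPM in the early HER2-negative endothelial cells. Their part in the result was not tested.

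In mural cells, 4 of the 6 genes with enough counts were past 1.5-fold lower in the late than in the early HER2-positive library and none higher (all genes 12.7% lower and 6.57% higher). They were Cd74, H2-Aa, H2-Ab1 and H2-DMb1, of which H2-DMb1 rests on 4 late and 14 early counts. Cd74 stood at 58.2 CPM in the late and 172 CPM in the early library, a ratio of 0.338, beside 2423 CPM of Sftpc in the late and 7064 CPM in the early mural cells. A single early HER2-positive mural barcode of 13219 UMIs held 376 of the 845 Cd74 counts, 90 of 191 H2-Aa counts and 159 of 277 H2-Ab1 counts. It also held 38 counts of Laptm5, a leukocyte gene, and 9 of H2-Oa, but none of Ptprc. Without the top barcode of each library the Cd74 ratio was 0.494, and Cd74 in early mural cells was 95.8 CPM. A stricter filter kept only barcodes at 0 for 8 leukocyte genes, namely Ptprc, Laptm5, Coro1a, Tyrobp, Fcer1g, Cd3e, Cd79a and Cd53. With it the ratio was 0.610 for Cd74 and 0.933 for H2-Ab1, so that H2-Ab1 was no longer past 1.5-fold. Of the mural barcodes, 514 of 931 in the late and 627 of 1352 in the early library met the rules of more than 1 class. With these left out, the ratios were lower, at 0.121 for Cd74, 0.0952 for H2-Aa and 0.0520 for H2-Ab1. This setting did not filter on leukocyte genes other than Ptprc. Whether the early barcode of 13219 UMIs stayed in was not tested, so the lower ratios do not show a wider difference among the other mural cells.

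AT2 cells are set against endothelial cells next, which asks how the set is composed in the epithelium and in the vessel wall. In the late HER2-positive library 0 of 7 genes were past 1.5-fold higher and 4 lower in AT2 cells, namely H2-Ab1, H2-DMa, H2-DMb1 and Ciita (all genes 16.7% higher and 54.9% lower). In the early HER2-positive library 1, H2-Aa, was higher and 3 lower, namely H2-DMa, H2-DMb1 and Ciita (17.9% and 54.9%), with H2-Ab1 at 0.667, on the edge of the fold. Sftpc alone took 220590 CPM in late HER2-positive AT2 cells, and the median gene lay at -0.79 in the late and -0.70 in the early library on the log2 scale of AT2 over endothelial. Set against that median gene, Cd74 in AT2 cells was 1.79-fold and 1.97-fold higher and H2-Aa 2.56-fold and 2.63-fold higher, in the late and early libraries, and Ciita remained below 1, at 0.340 and 0.460. On this scaling the direction for H2-Ab1 turned in both libraries, to 1.07 and 1.09, and that for H2-DMb1 turned in the late library alone, to 1.01, with 0.876 in the early one.

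Ratios between genes of the same cells need no such scaling; they are ratios of counts from 3′ ends, are not corrected for length, and serve only to compare classes. The count of H2-Aa per count of H2-Ab1 was 1.36 and 1.31 in AT2 cells of the late and early HER2-positive libraries, against 0.565, 0.541 and 0.495 in endothelial cells of the late HER2-positive, early HER2-positive and early HER2-negative libraries. Per 1000 counts of Cd74 there were 22.8 and 22.3 of H2-DMa in those AT2 cells, against 63.1, 61.0 and 62.7 in those endothelial cells. For Ciita the figures were 1.93 and 2.66 in those AT2 cells, against 10.2, 11.4 and 13.4 in those endothelial cells. The AT2 and endothelial intervals did not overlap in any of these ratios. Barcodes of 1 to 100 UMIs, which hold free RNA, had an H2-Aa to H2-Ab1 ratio of 0.995, 0.796 and 0.396 in the late HER2-positive, early HER2-positive and early HER2-negative libraries.

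**Figure D2:**
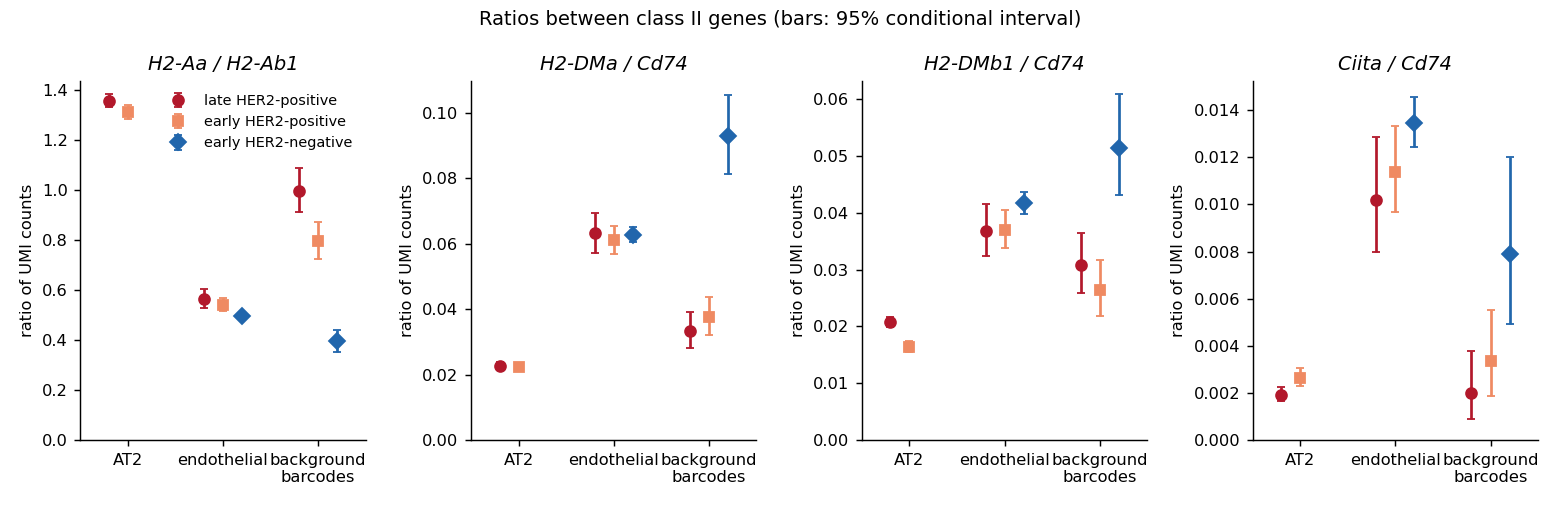
Ratios of UMI counts between pairs of genes in AT2 cells, endothelial cells and background barcodes, by library, with 95% conditional intervals. H2-Aa per H2-Ab1 is above 1.3 in AT2 cells and at or below 0.565 in endothelial cells.

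Single cells differed in how evenly they carried Cd74. After each cell was thinned to 1000 UMIs, 85.1% and 82.2% of AT2 cells of the late and early HER2-positive libraries had a Cd74 UMI, against 60.8%, 62.8% and 69.2% of endothelial cells of the late HER2-positive, early HER2-positive and early HER2-negative libraries (unthinned 99.2% and 98.2%, against 76.3%, 78.1% and 80.7%). The share was 2.47%, 3.77% and 0.452% in mural cells of the same 3 libraries, a type not known for the set, whose median depths were 3993, 3180.0 and 3522 UMIs. Median depths were 8837 and 7137 UMIs in AT2 cells, against 5386, 3789 and 3034 UMIs in endothelial cells. The variance over the mean was 1.57 and 1.80 in AT2 cells, against 4.88, 3.26 and 3.50 in endothelial cells. At the same time 20.6%, 17.4% and 24.0% of endothelial cells had at least 5 Cd74 UMIs, beside 13.6% and 14.4% of AT2 cells. No UMI of Cd74, H2-Aa or H2-Ab1 was found in 9.34% and 10.6% of AT2 cells, against 32.8%, 28.6% and 21.2% of endothelial cells.

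**Figure D3:**
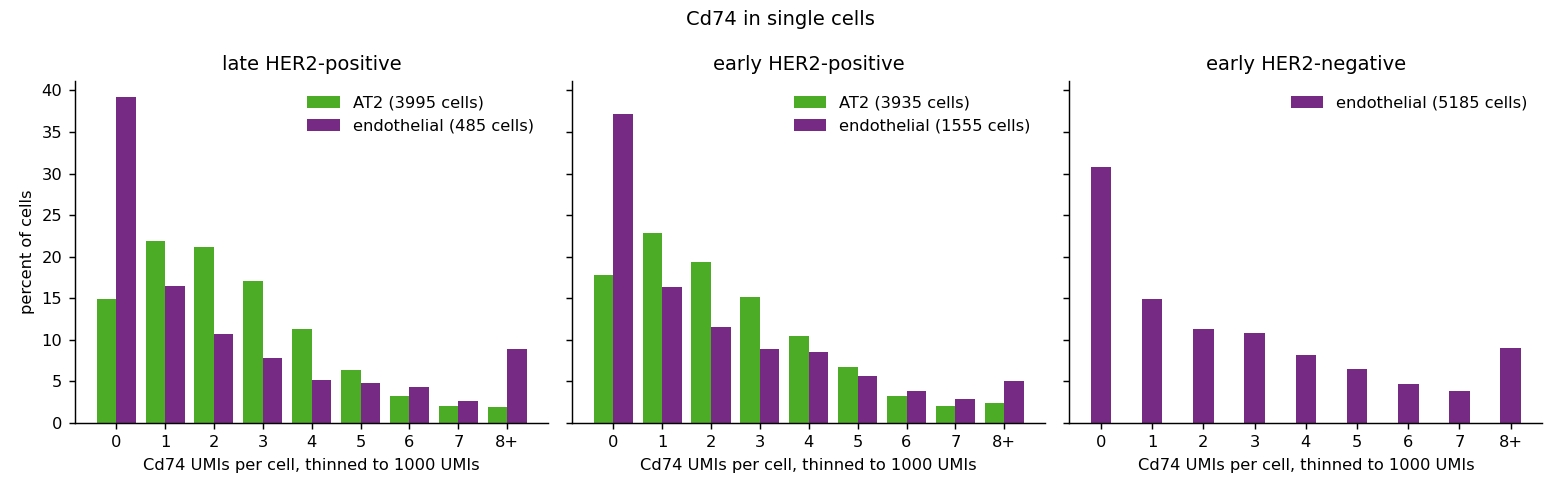
Percent of cells by number of Cd74 UMIs after thinning to 1000 UMIs, for AT2 and endothelial cells of each library. In the late HER2-positive library 39.2% of endothelial cells are at 0 and 8.87% at 8 or more.

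Endothelial cells with and without counts of a second gene were then compared, with the 4 genes chosen after values were seen. Cells with at least 2 UMIs of Gpihbp1, which holds lipoprotein lipase on capillaries, had Cd74 at 3012, 2535 and 3051 CPM in the late HER2-positive, early HER2-positive and early HER2-negative libraries, against 596, 735 and 1078 CPM in the other endothelial cells. Past 1.5-fold higher were 7, 6 and 7 of the 7 genes in the 3 libraries and none lower (all genes 20.0%, 9.23% and 10.3% higher, and 12.7%, 14.4% and 12.1% lower). Cells with a UMI of Gja5, an arterial connexin, went the other way, with 7, 7 and 4 genes past 1.5-fold lower and none higher (all genes 19.3%, 18.3% and 9.95% lower, and 11.5%, 11.7% and 14.9% higher), and Cd74 at 946, 872 and 1636 CPM, against 3068, 2230.3 and 2782 CPM in the others. Cells with at least 2 UMIs of Car4, a carbonic anhydrase, had 0, 4 and 7 genes past 1.5-fold lower and 2, 0 and 0 higher in the 3 libraries (all genes 13.9%, 16.9% and 13.0% lower, and 15.3%, 8.87% and 10.6% higher).

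Cells with at least 2 UMIs of Gbp4, an interferon-induced GTPase, stood out by Ciita. It was at 41.8, 52.5 and 83.5 CPM in them, against 18.9, 16.0 and 26.6 CPM in the other endothelial cells of the late HER2-positive, early HER2-positive and early HER2-negative libraries. Cd74 was 1.55-fold, 1.35-fold and 1.44-fold higher in them. Of the 7 genes, 3 were past 1.5-fold higher in each library and none lower (all genes 8.84%, 5.66% and 5.41% higher, and 10.2%, 10.9% and 8.56% lower), and Ciita was among them each time. In all 12 of these splits the cells with the UMIs had the higher median depth, for Gbp4 in the late library 7644.5 UMIs against 5026 UMIs in the other cells. The part of depth in these differences was not tested.

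**Figure D4:**
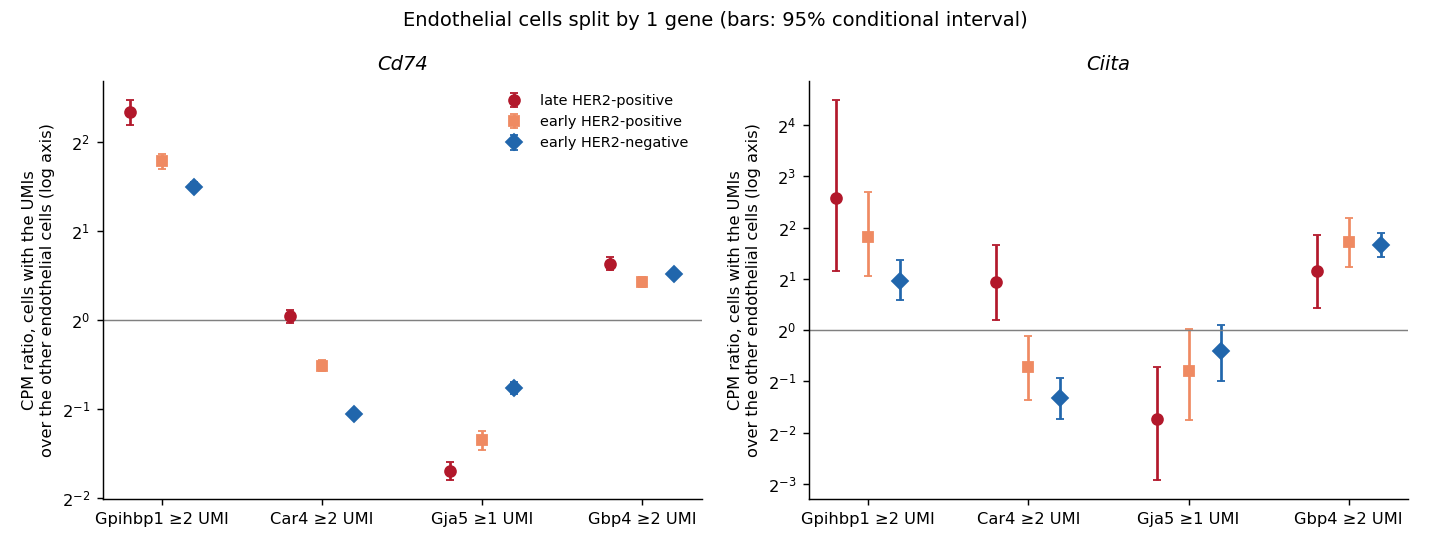
Ratio of CPM (log axis) of Cd74 and Ciita in endothelial cells with the stated UMIs over the other endothelial cells, by library, with 95% conditional intervals. Cd74 is 5.05-fold, 3.45-fold and 2.83-fold higher with Gpihbp1, and Ciita 2.21-fold, 3.28-fold and 3.14-fold higher with Gbp4.

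The mammary cells, found in the late HER2-positive library, carried little of the set. Against AT2 cells of the same library, 6 of 7 genes were past 1.5-fold lower and 0 higher (all genes 20.4% lower and 45.2% higher). Among the 6, H2-Eb1 and Ciita rest on 3 mammary counts each. Cd74 stood at 60.6 CPM in mammary and 2489 CPM in AT2 cells, H2-Aa at 13.0 and 645 CPM, and H2-Ab1 at 10.3 and 476 CPM. Sftpc in mammary cells was 2.44% of its AT2 level, and that share of the AT2 level would be 60.7 CPM of Cd74, 15.7 CPM of H2-Aa and 11.6 CPM of H2-Ab1. The intervals of these 3 measured mammary levels included those values. A single mammary cell held 48 of the 224 Cd74 counts, and the level without it was 48.0 CPM. With 151 of the 161 mammary cells, those whose Sftpc was under 1% of UMIs, the Cd74 ratio of mammary over AT2 was 0.00518 in place of 0.0243, and with background subtracted it was 0.00266. The subtraction took the background share of mammary cells, 3.30% of UMIs, from Sftpc alone. The Sftpc share, the 1% filter and the subtraction thus all rest on Sftpc and are not independent of each other. Whether the mammary counts come from AT2 RNA was not tested.

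H2-DMb1 was nearest to its AT2 level, at 35.4 CPM in mammary and 51.7 CPM in AT2 cells, a ratio of 0.685 (0.569 to 0.818), just short of 1.5-fold lower on the CPM scale. The median gene of mammary over AT2 lay at 0.50 on the log2 scale, and set against it H2-DMb1 was at 0.485 and past 1.5-fold lower like the other genes. It was also past 1.5-fold lower, at 0.626 to 0.658, with a mitochondrial share under 10%, with barcodes of more than 1 class left out, with equal weight per cell and without the top cell. Its 131 mammary counts lay, without thinning, in 83 of the 161 cells with at most 10 in a cell. After thinning to equal depth, 4 of the 161 mammary cells (2.48%) had an H2-DMb1 UMI, against 5.38% of late HER2-positive AT2 cells. Median depth before thinning was 22179 UMIs in the mammary and 8837 UMIs in those AT2 cells. For H2-DMb1 the Sftpc share would be 1.26 CPM. H2-DMa stood at 6.76 CPM, beside 1.38 CPM for that share. Class I genes, added after values were seen, were on the other side on the CPM scale, as was the median gene, at a ratio of 1.41. H2-K1 stood at 1617 CPM in mammary and 493 CPM in AT2 cells, H2-D1 at 2209 and 897 CPM, and B2m at 964 and 359 CPM. In late HER2-positive airway cells Cd74 was at 300.4 CPM, beside 63.4 CPM for the share that their Sftpc gives. A single airway barcode held 149 of the 658 Cd74 counts, and the level without it was 236 CPM.

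**Figure D5:**
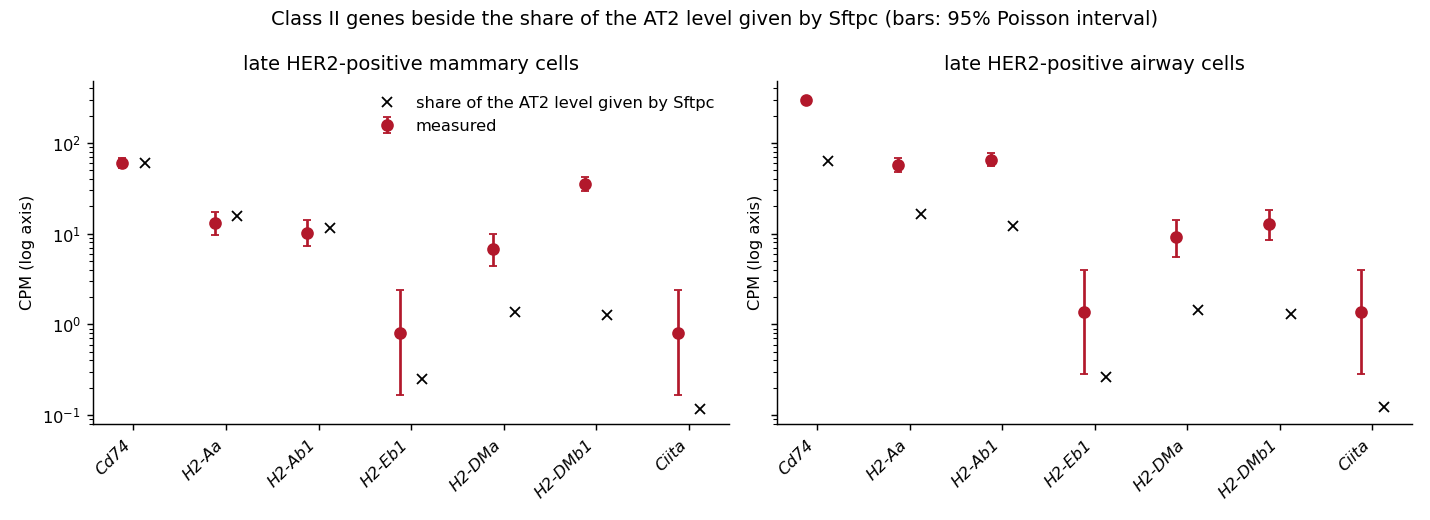
CPM (log axis) of the 7 genes in mammary and airway cells of the late HER2-positive library with 95% Poisson intervals, beside the share of the AT2 level that their Sftpc gives (crosses). In mammary cells Cd74 at 60.6 CPM meets its cross and H2-DMb1 at 35.4 CPM lies above 1.26 CPM.

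Other genes of the pathway were read from lists. Of 7 genes that carry interferon-gamma signals to Ciita, 6 were past 1.5-fold lower and 0 higher in AT2 than in endothelial cells in both HER2-positive libraries. Irf1, a transcription factor that interferon induces, stood at 23.1 CPM in AT2 and 185 CPM in endothelial cells of the late library. Of 7 factors of the X and Y boxes, 5 were lower and 0 higher in both libraries. The endosomal genes were mixed, with 2 of 6 higher and 3 lower: Ctsh, a cathepsin, stood at 1077 CPM in AT2 and 204 CPM in endothelial cells of the late library, and Ctsl, another, at 55.7 and 280 CPM. All 3 co-stimulation and checkpoint genes with enough counts were lower in AT2 cells, such as Cd274, the ligand of PD-1, at 0.301 CPM in AT2 and 12.4 CPM in endothelial cells of the late library. These counts stand beside the 54.9% of all genes that were lower in AT2 cells.

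Over 17 groups of library and class, which share libraries and depth, the genes most like the mean of the members on the log2(CPM + 1) scale were Cd36, a fatty acid transporter, with r = 0.947, St6galnac2, a sialyltransferase, with 0.939, and Cd200 and Psme1 with 0.933.

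Markers of leukocytes were read beside these levels. Of 8 general leukocyte genes, Ptprc (by the rule) and Tyrobp were at 0 in AT2, endothelial and mammary cells. The list summed to 100.4 and 90.1 CPM in AT2 cells of the late and early HER2-positive libraries, and to 51.5, 55.0 and 63.0 CPM in endothelial cells of the late HER2-positive, early HER2-positive and early HER2-negative libraries. Lcp1, an actin-bundling gene, made up 99.8 and 89.8 CPM of those AT2 sums, and 50.8, 54.9 and 62.0 CPM of those endothelial sums. Of 4 B cell genes, Cd79b was at 23.7 and 25.6 CPM in those AT2 cells, while Ms4a1 was at 0. Of 9 macrophage or monocyte genes, Marco, Chil3 and Adgre1 were at 0 in AT2 and endothelial cells. Plac8, of the same list, was at 549, 246 and 77.7 CPM in those endothelial cells. The 5 dendritic cell genes summed to at most 0.334 CPM in AT2 and endothelial cells, and the 3 T or NK cell genes in the files to at most 0.343 CPM. In mural cells the general list summed to 4.67, 15.9 and 2.46 CPM in the late HER2-positive, early HER2-positive and early HER2-negative libraries.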

How the data were processed

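The deposited values are unnormalised UMI counts per gene and barcode, and the file headers give the writing software as version 3.1.0. These are the authors' deposited counts. The submitters' processing notes name genome build mm10, and the sources used here do not name an aligner. The files list 6794880 barcodes each, so they are not limited to cells. Kept barcodes had at least 1000 UMIs, under 25% mitochondrial UMIs and 0 Ptprc. First match set the class: mammary, Csn3 and Wfdc18 at 1% of UMIs; AT2, Sftpc at 10%; airway, Cyp2f2 and Foxj1 with 3 UMIs; endothelial, Cldn5 and Cdh5 with 2; mural, Higd1b, Cox4i2 and Myh11 with 2; fibroblast, Pdgfra and Col1a2 with 2. Counts were summed per library and class and scaled to CPM. A gene was called past 1.5-fold with at least 10 counts in the pair. Intervals at the 95% level are exact: Poisson for CPM, binomial (Clopper-Pearson) for shares, and conditional on the summed counts for ratios. Groups under 50 cells are given as counts. The fold rule was tested on simulated counts at the depth of the AT2 sums, for well-counted genes with changes larger than 1.5-fold. That test does not cover calls that rest on few counts. Members and gene lists were chosen with earlier results of these data known. The named genes are the members, the fixed pathway lists and the 10 genes most like the members; the endothelial splits, class I genes and motifs were chosen after values were seen. Strain differences from the reference build were not tested. Intervals were computed with scipy 1.17.1 and numpy 2.4.6. Positions follow RefSeq on GRCm38.p6, and transcripts GENCODE on GRCm38.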

Additional observations from a re-analysis of the deposited data

Results flagged for a closer look

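Barcodes with a Ptprc count lie outside the groups described above. There were 4, 11 and 6 of them in the late HER2-positive, early HER2-positive and early HER2-negative libraries, and they held 94, 324 and 156 Cd74 counts, above the limit of 3 counts that a count of 0 allows. On the CPM scale that was 2553, 3067 and 3871 CPM, beside 2044 to 2708 CPM in AT2 and endothelial cells. In endothelial cells with at least 2 UMIs of Car4, the ratio over the other endothelial cells took opposite directions between libraries for a pair of genes, a difference that was not tested. For Ciita it was 1.92 in the late HER2-positive, 0.607 in the early HER2-positive and 0.398 in the early HER2-negative library. For H2-Eb1 it was 2.26, 0.516 and 0.446 in the same order of libraries, on 11, 8 and 15 counts in the cells with Car4.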

How the results depend on the processing

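No paired analysis was possible because each group is 1 library, so that the groups share fewer than 2 replicate numbers. Of 168 counts of genes past 1.5-fold under the alternatives, 153 stayed within 1.5 times the reported count. Of the single values, 32 of 573 ratios changed their side of the fold, and another 2, past 1.5-fold as reported, turned direction. Turns of ratios that were within the fold as reported were not counted. Of the levels, 169 of 980 left their counting interval, and without thinning 81 of 119 shares of cells left theirs. With a mitochondrial share under 10%, 1 gene, Ciita, was lower in late AT2 cells and 2 were higher in early AT2 over endothelial cells. In mural cells 1 gene, H2-DMa, was higher with the 8 leukocyte genes of the stricter filter at 0 UMIs and with background subtracted. In early HER2-positive over HER2-negative endothelial cells 2 genes were lower with doubled class thresholds, median-of-ratios scaling or the top cell left out, and 0, with Ciita no longer called, with barcodes of more than 1 class left out. In late AT2 over endothelial cells, 1 was higher with those barcodes left out or background subtracted; with median-of-ratios scaling 3 were higher and 2 lower, H2-Ab1 turning to 1.08 and H2-DMb1 to 1.03. In the early library that scaling gave 3 higher and 1 lower, and equal weight per cell gave 0 higher. Leaving out barcodes outside AT2 with Sftpc at 1% of UMIs was added after seeing the data and brought the mammary over AT2 ratio of Cd74 to 0.00518. The cause was not tested, except that the scaling divides by the median gene. Single libraries, and 3 to 26 H2-Eb1 counts in several classes, limit the depth.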
